A study of Mus musculus with 3 samples.

Results

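The 44 mitosis genes encode the cyclins, kinases, checkpoint proteins, motors and spindle proteins that carry a cell through division, and they were taken by symbol from the 52636 genes of the count tables. Each symbol matched 1 row. By role they comprised 7 genes for CDK1, its cyclins and activators, 3 mitotic kinases, 5 spindle checkpoint genes, 4 genes around the anaphase-promoting complex and separase, 4 chromosomal passenger genes, 3 centromere and kinetochore genes, 6 kinesins, 6 spindle assembly genes, 4 genes of the central spindle and cytokinesis and 2 genes of mitotic chromosomes. The study measured them by Smart-SCRB, a single-cell RNA-seq method in which the messenger RNA of each well carries a well barcode and each captured molecule a unique molecular identifier (UMI). The cells were JM8.N4 mouse embryonic stem (ES) cells of strain C57BL/6N in which the cohesin subunit RAD21 is fused to an auxin-induced degron (AID), so that auxin triggers its destruction. Control and auxin-treated cells alike carried this fusion and grew without feeders in serum, LIF, 1 μM PD0325901 (a MEK inhibitor) and 3 μM CHIR99021 (a GSK3 inhibitor). Auxin was indole-3-acetic acid at 500 μM for 6 h, and the procedure was carried out in 3 replicates. Cells without the degron that received auxin were not analysed here, so that the effect of auxin itself and that of RAD21 loss cannot be told apart.

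Most genes of this set are transcribed in waves. Their messenger RNAs build up from late S phase to mitosis and decay in G1, and in many of their promoters CCAAT boxes, bound by the factor NF-Y, sit near a cell cycle homology region (CHR), the element through which the DREAM and B-MYB–FOXM1 complexes repress and then activate them. Cohesin holds the sister chromatids together from S phase on. The spindle checkpoint restrains CDC20 until every kinetochore is attached, after which the anaphase-promoting complex destroys securin (Pttg1) and cyclin B, and separase (Espl1) cuts RAD21 so that the chromatids part. ES cells cycle fast with a short G1, and mitotic transcripts are abundant in them.

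After the filter of more than 2600 detected genes per cell, replicate 1 had 4 plates with 168 control and 169 auxin-treated cells, replicate 2 had 8 with 371 and 290, and replicate 3 had 2 plates of settled condition with 85 and 84. The 6 sets of cells, 1 for each replicate and condition, held 6064936 to 50448320 UMIs. Every plate held 1 condition, so plate and condition cannot be told apart within replicate 3. The 288 well barcodes were all used on more than 1 plate, all 1536 well names were distinct, and no well repeated the counts of another. Levels are given as CPM, the UMI count of a gene per 1000000 UMIs of its set, and "from a to b" reads from control to auxin. Rad21 itself went from 20.9 to 19.3 CPM in replicate 1, from 31.2 to 34.0 in replicate 2 and from 42.4 to 45.2 in replicate 3, and since the degron acts on the protein these values do not check the treatment. The replicates stood apart from each other. Of 10 ES cell markers, only Dppa5a (2118 to 7998 CPM), Nanog and Zfp42 were above 10 CPM in all sets. Tfcp2l1, Klf4, Tbx3, Esrrb, Nanog and Zfp42 were lower in both sets of replicate 2 than in all others, as in Tfcp2l1 with 4.10 and 2.52 CPM against 239 to 330 CPM. Pou5f1 was low in replicates 2 and 3 (5.81 to 12.5 CPM against 228 to 273 in replicate 1), and Utf1 was highest in replicate 2 (174 to 182 CPM against 9.20 to 52.1). Sox2 was listed at 0 in replicates 2 and 3, and so were 162 of the 7363 genes above 10 CPM in both conditions of replicate 1. Of these 162, 98.8% of those with an annotated position overlap another gene, against 54.4% of the 7363. No mitosis gene was listed at 0 in any set, although 24 of the 44 overlap another annotated gene. Among them, Ccna2 overlaps Exosc9, Cdc25b Spef1, Cdc20 Elovl1, Ube2c Tnnc2, Bub3 Fgfr2 and Prc1 Rccd1 on the opposite strand. Nusap1 likewise overlaps Oip5, Kif20a Cdc23 and Kif4 Pdzd11. Whether the counting used strand is not given in the sources used here, so the counts of these genes are less certain. Levels are therefore compared within a replicate. Summed over their lists, fibroblast markers reached at most 29.4 CPM, endoderm markers 19.4 CPM and mesoderm and neural markers 49.6 CPM, with Sox7 at 0 in 3 sets and Foxa2 at 0 in 3 sets.

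The promoters of 37 of the 44 genes were found in the RefSeq table of mouse assembly GRCm38.p6, each covering 250 bases before to 50 after the gene's start. The other 7 were Ccna2, Cdc25c, Aurkb, Incenp, Kif20a, Tpx2 and Dlgap5. The letters CCAAT, the core of the NF-Y box, occurred on either strand in 30 of the 37 promoters (81.1%) and in 41.1% of the promoters of all 27025 genes. The share was 62.9% in other mitosis genes and 66.7% in S-phase genes, so a high share was not particular to the set. The letters TTTGAA, a common form of the CHR, occurred on either strand in 27 of 37 (73.0%), in 45.7% of other mitosis genes, in 12.5% of S-phase genes and in 20.2% of all. Both stood in the same promoter in 24 of 37 mitosis genes (64.9%), in 32.9% of 70 other mitosis genes, in 8.33% of 24 S-phase genes and in 7.97% of all genes. Matches of one motif may overlap those of another. Shown here are the promoters of the 4 genes with a promoter in the table whose transcripts followed the rest of the set most closely across cells (Cenpf, Ube2c, Nusap1 and Ccnb1) and of Cdc20, which had the lowest p-value of the set once replicates were paired. They read 5′ to 3′ on the gene's strand, with matches to CCAAT or ATTGG and to TTTGAA or TTCAAA in capitals.
Cenpf (chr1:189688037-189688336, minus strand): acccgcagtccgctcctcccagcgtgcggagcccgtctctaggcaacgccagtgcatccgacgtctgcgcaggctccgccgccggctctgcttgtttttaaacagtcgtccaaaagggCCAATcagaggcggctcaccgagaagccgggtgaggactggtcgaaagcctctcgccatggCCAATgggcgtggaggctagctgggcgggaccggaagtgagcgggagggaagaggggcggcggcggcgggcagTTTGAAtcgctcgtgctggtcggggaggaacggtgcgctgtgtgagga
Ube2c (chr2:164769679-164769978, plus strand): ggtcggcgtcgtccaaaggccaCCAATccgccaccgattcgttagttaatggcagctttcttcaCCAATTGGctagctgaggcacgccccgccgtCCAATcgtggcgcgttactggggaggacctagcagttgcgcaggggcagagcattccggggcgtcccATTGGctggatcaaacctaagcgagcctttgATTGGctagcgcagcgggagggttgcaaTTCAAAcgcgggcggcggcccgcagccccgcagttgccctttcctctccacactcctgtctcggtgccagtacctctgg
Nusap1 (chr2:119618048-119618347, plus strand): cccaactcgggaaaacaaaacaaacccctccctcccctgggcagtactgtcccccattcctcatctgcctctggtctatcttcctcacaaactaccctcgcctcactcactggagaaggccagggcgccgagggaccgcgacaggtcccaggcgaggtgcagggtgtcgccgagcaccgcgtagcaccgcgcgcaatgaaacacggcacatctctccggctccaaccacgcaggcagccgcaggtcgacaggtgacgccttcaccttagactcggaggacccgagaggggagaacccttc
Ccnb1 (chr13:100786437-100786736, minus strand): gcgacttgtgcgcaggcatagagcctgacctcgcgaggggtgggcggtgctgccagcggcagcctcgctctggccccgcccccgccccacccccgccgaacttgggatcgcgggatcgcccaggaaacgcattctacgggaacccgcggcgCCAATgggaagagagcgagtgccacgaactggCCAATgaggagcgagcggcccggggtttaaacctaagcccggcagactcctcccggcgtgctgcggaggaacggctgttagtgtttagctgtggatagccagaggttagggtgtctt
Cdc20 (chr4:118437294-118437593, minus strand): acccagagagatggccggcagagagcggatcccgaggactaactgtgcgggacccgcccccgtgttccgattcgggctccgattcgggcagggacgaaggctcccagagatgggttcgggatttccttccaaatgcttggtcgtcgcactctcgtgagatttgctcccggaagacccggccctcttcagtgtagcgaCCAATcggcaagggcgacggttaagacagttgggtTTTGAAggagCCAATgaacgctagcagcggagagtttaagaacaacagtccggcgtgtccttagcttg
Cenpf carried CCAAT beginning 132 and 71 bases before the start and TTTGAA at base 3 after it. Ube2c held 6 matches to CCAAT, of which a pair overlap on opposite strands, and TTCAAA 29 bases before the start. Ccnb1 had CCAAT 99 and 67 bases before the start and no TTTGAA in this window. In Cdc20 CCAAT stood 53 and 8 bases before the start, with TTTGAA at 18 bases between them. Nusap1 held neither motif in this window. Windows follow the RefSeq start, and that of Pttg1 lies inside the gene as GENCODE places it (chr11:43420250-43426251, minus strand), so it is counted but not shown.

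At the level of the cell population, no mitosis gene passed the test between auxin and control. UMI counts of all cells of a replicate and condition were added up, so that fewer cells in mitosis and less RNA per mitotic cell cannot be told apart, and tested with edgeR (quasi-likelihood test, Benjamini-Hochberg adjustment over 17514 genes, threshold 0.05). Of the 44 genes, 0 were called, against a background of 0% of all genes, and DESeq2 also called 0. An unadjusted p under 0.05 was likewise reached by 0 of the 44, beside 0.0799% of all genes with a higher and 0.108% with a lower level. Only 33 of the 17514 genes reached it here in either direction, against 1036 with the replicate as a block. The 0 of 44 in this fit therefore says little about whether these genes changed. When the replicate was included as a block, 0 mitosis genes passed, against 0.0171% of all genes (Dkk1, Klf4 and Klf5), and DESeq2 with the block again called 0 of the 44. In the blocked edgeR fit 4 mitosis genes had an unadjusted p under 0.05 with a higher level after auxin (9.09% of the 44, background 2.91%) and 1 with a lower level (2.27%, background 3.01%). The 5 genes became 3 when replicate 1 was left out, beside 1128 of 19657 genes tested. They became 21 without replicate 2 (1127 of 16756 genes tested) and 2 without replicate 3 (747 of 20903). None of them passed the adjusted threshold. Estimates given below are from the fit without the block unless the block is named. The errors of that fit include the differences between replicates, so they cannot be set against errors of the blocked fit. For Hmmr the SE was 0.39 without and 0.10 with the block, and for Ect2 it was 0.38 and 0.14. The fold changes were small and leaned upwards. The median log2 fold change of the 44 was 0.11 without and 0.12 with the block, beside 0.00 over all genes tested, and single genes ran from -0.27 to 0.46. A log2 fold change above 0 was found for 38 of the 44 (86.4%, background 49.9%) and one below 0 for 6 (13.6%, background 50.1%). For 2 of the 4 plates of replicate 3 the deposited annotation and the source values of the study's figures give opposite conditions, and these disputed plates were left out. The count of 38 was 25 with them placed by the figure source values and 33 with them placed by the annotation. It was 25 in cells thinned to 20000 UMIs, and 30, 41 and 23 without replicate 1, 2 or 3. In these fits the median log2 fold change over all genes tested lay between -0.0097 and 0.0070, so about as many of all genes lay above 0 as below. Of the genes named by rule, Bub3, Cenpf, Hmmr, Kif20b, Mki67, Prc1 and Top2a turned sign under at least 1 alternative.

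The 3 replicates did not move alike. In replicate 1, 38 of the 44 genes had a higher CPM after auxin (86.4%, background 50.7%) and the median log2 ratio was 0.24. In replicate 3, 41 did (93.2%, background 46.5%), with a median of 0.31. In replicate 2, 16 were higher (36.4%, background 53.9%) and 28 lower (63.6%, background 46%), and the median was -0.09. The medians over all genes tested were 0.03, 0.04 and -0.04 in replicates 1, 2 and 3. The commonest pattern, in 23 of 44 genes (52.3%, background 10%), was thus a higher level in replicates 1 and 3 and a lower one in replicate 2. Replicate 2 also held the cells low in Tfcp2l1 and Nanog, and the part of that difference in the result was not tested. A higher level in all 3 replicates was seen in 13 genes (29.5%, background 15.6%), namely Bub1, Bub1b, Ccna2, Cdc20, Cdc25b, Cdc25c, Cenpa, Ckap2, Kif20a, Mad2l1, Nek2, Pttg1 and Ttk. A lower level in all 3 was seen in 1 gene, Dlgap5 (2.27%, background 13.7%).

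**Figure D1:**
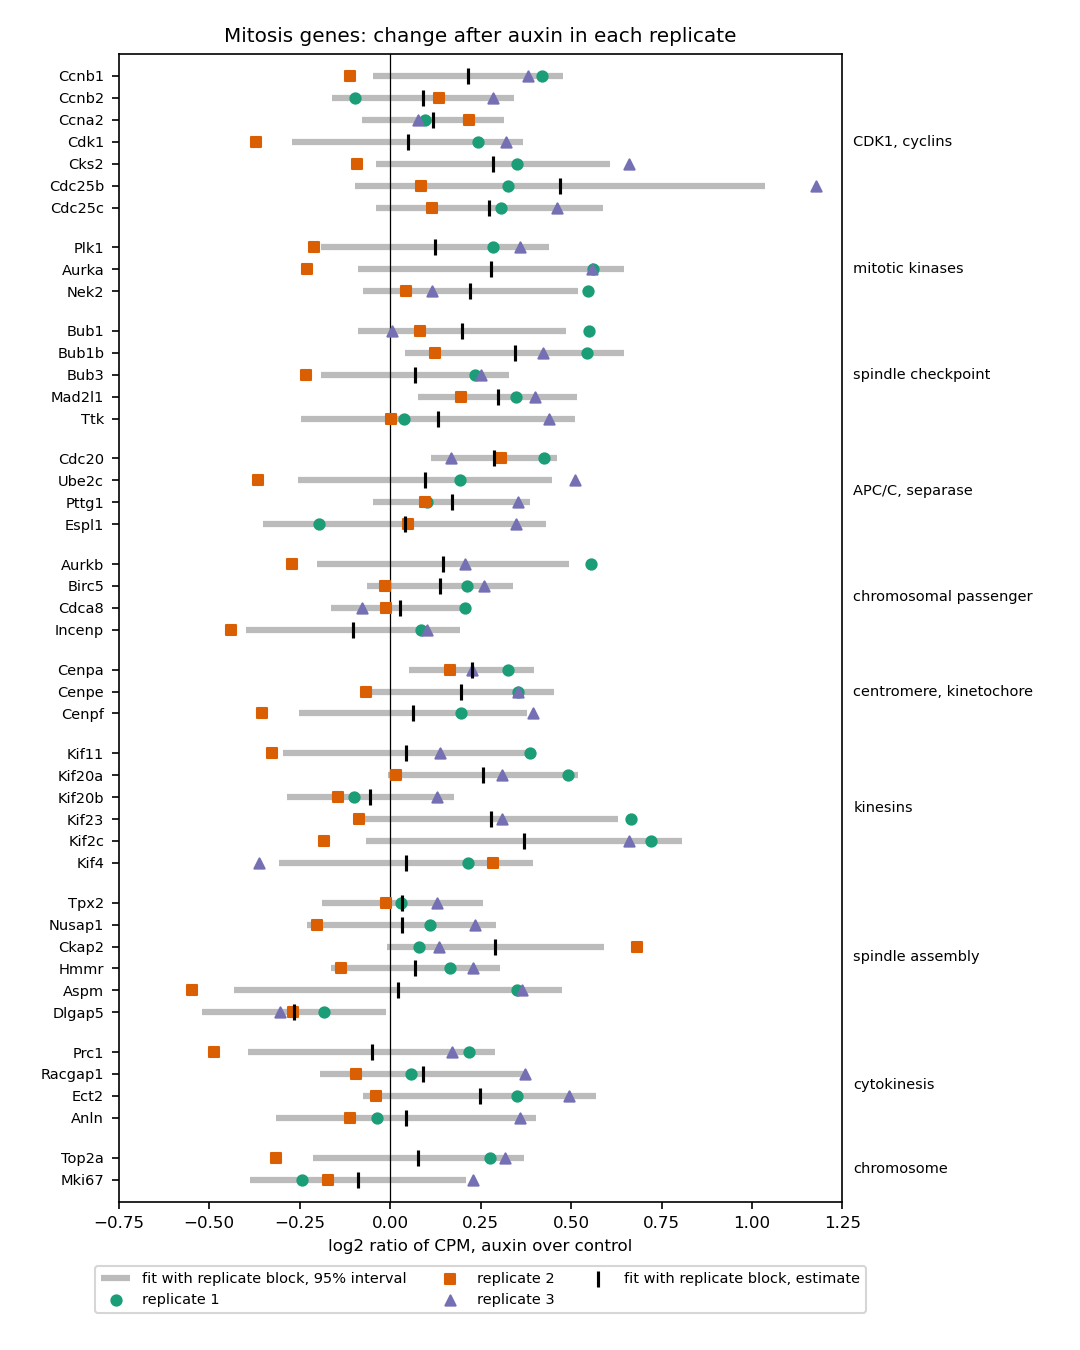
Log2 ratio of CPM, auxin over control, for each of the 44 mitosis genes (rows, grouped by role) in replicates 1 (circles), 2 (squares) and 3 (triangles). Grey bars and black ticks are the 95% interval and estimate of the edgeR fit with replicate block. Squares lie left of the other symbols for most genes, and the intervals of Bub1b, Mad2l1, Cdc20, Cenpa and Dlgap5 leave out 0 before any adjustment for the number of genes.

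The genes that drive entry into mitosis are CDK1, the kinase that starts it, its cyclins A2, B1 and B2, the small subunit CKS2, and the phosphatases CDC25B and CDC25C, which activate CDK1. Of these 7, 6 were higher after auxin in replicate 1 (background 50.7%), 4 in replicate 2 (background 53.9%) and 7 in replicate 3 (background 46.5%). Ccnb1 (chr13:100778650-100786570 of mm10, minus strand), the most abundant, went from 372 to 498 CPM in replicate 1, from 746 to 690.3 in replicate 2 and from 527 to 687 in replicate 3. It was higher by roughly the same ratio in replicates 1 and 3 and slightly lower in replicate 2, giving a log2 fold change of 0.19 ± 0.22 (SE, edgeR adjusted p = 1). Cdk1 showed the same split more strongly, from 372 to 287 CPM in replicate 2 against 261 to 309 in replicate 1 and 338 to 422 in replicate 3. Cdc25b, the least abundant gene of the whole set, had the largest estimate. It went from 11.2 to 14.0 CPM in replicate 1, from 21.1 to 22.4 in replicate 2 and from 10.7 to 24.2 in replicate 3, so that its log2 fold change of 0.46 ± 0.36 (SE, edgeR adjusted p = 1) rests mostly on replicate 3 and was 0.15 without it.

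Among the kinases of spindle building, Aurka (chr2:172356190-172370535, minus strand), which matures the spindle poles, moved from 116 to 171 CPM in replicate 1, from 213 to 182 in replicate 2 and from 205 to 301 in replicate 3. The log2 ratios were 0.56, -0.23 and 0.56, the widest split between replicates in this group, and the fitted value was 0.30 ± 0.26 (SE, edgeR adjusted p = 1). Plk1, the polo-like kinase, and Nek2, a kinase of centrosome separation, had fitted values of 0.11 and 0.25.

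Of the spindle checkpoint genes, 5 of 5 were higher in replicates 1 and 3 (background 50.7% and 46.5%) and 4 of 5 in replicate 2 (background 53.9%), with near ties for Ttk in replicate 2 and Bub1 in replicate 3 (log2 ratios of 0.0018 and 0.0051). Bub1b (chr2:118598211-118641591, plus strand) encodes BUBR1, which binds and inhibits CDC20. It moved from 31.3 to 45.7 CPM in replicate 1, from 75.4 to 82.1 in replicate 2 and from 63.5 to 85.1 in replicate 3. All 3 pairs pointed up, and with the replicate as a block its log2 fold change was 0.34 ± 0.13 (SE, edgeR unadjusted p = 0.0303, adjusted p = 0.826). Mad2l1, which encodes the checkpoint protein MAD2, moved from 175 to 222, from 182 to 209 and from 137 to 181 CPM, with 0.30 ± 0.10 in the blocked fit (unadjusted p = 0.0137, adjusted p = 0.740). Bub3 (chr7:131560222-131571895, plus strand), the platform protein of the checkpoint and its most abundant transcript, was the exception. Its level went from 278 to 327 CPM in replicate 1, from 534 to 455 in replicate 2 and from 374 to 445 in replicate 3, so the groups crossed in direction, and the fitted value was 0.05 ± 0.21 (SE, edgeR adjusted p = 1).

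Cdc20 (chr4:118432901-118437352, minus strand), the activator of the anaphase-promoting complex and the target of the checkpoint, had the lowest p-value of the 44 genes in the blocked fit. Its level went from 284 to 382 CPM in replicate 1, from 779 to 963 in replicate 2 and from 587 to 660.0 in replicate 3. Auxin-treated cells were higher each time, by log2 ratios of 0.42, 0.31 and 0.17. The fitted log2 fold change was 0.27 ± 0.35 (SE, edgeR adjusted p = 1) without and 0.29 ± 0.08 (unadjusted p = 0.00492, adjusted p = 0.680) with the block. Ube2c, the ubiquitin-conjugating enzyme of the same complex, went the other way in replicate 2, from 629 to 488 CPM, while moving from 550.1 to 629 in replicate 1 and from 425 to 606 in replicate 3. Pttg1, which encodes securin, had log2 ratios of 0.10, 0.10 and 0.35, and Espl1, which encodes separase, -0.20, 0.05 and 0.35.

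The chromosomal passenger complex corrects faulty attachments of kinetochores and consists of Aurora B (Aurkb), INCENP, survivin (Birc5) and borealin (Cdca8). In replicate 1 all 4 genes were higher after auxin (background 50.7%), in replicate 2 none of the 4 was (background 53.9%), and in replicate 3 it was 3 of the 4 (background 46.5%). Birc5 (chr11:117849251-117855743, plus strand) went from 479 to 555 CPM in replicate 1, from 469 to 464 in replicate 2 and from 609 to 729 in replicate 3, which gave 0.16 ± 0.25 (SE, edgeR adjusted p = 1). Incenp had the strongest drop of the group in replicate 2, from 207 to 153 CPM, with 146 to 155 in replicate 1 and 156 to 167 in replicate 3.

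Of the centromere and kinetochore genes, Cenpa (chr5:30666777-30674830, plus strand), the histone H3 variant that marks centromeres, was higher in every replicate. It went from 484 to 606 CPM in replicate 1, from 714 to 801 in replicate 2 and from 497 to 582 in replicate 3, for 0.23 ± 0.08 in the blocked fit (SE, edgeR unadjusted p = 0.0163, adjusted p = 0.763). Cenpf (chr1:189640606-189688086, minus strand), a large kinetochore protein of G2 and mitosis, went from 566 to 648 CPM in replicate 1, from 957 to 749 in replicate 2 and from 572 to 751 in replicate 3. Replicate 2 thus ran against the others, and the fitted value was 0.03 ± 0.24 (SE, edgeR adjusted p = 1), with a sign that turned under several alternatives.

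Among the kinesins, Kif23 (chr9:61915905-61946774, minus strand), the motor of the central spindle, had the lowest p-value of its group in the fit without the block. Its CPM went from 52.7 to 83.7 in replicate 1, from 72.4 to 68.1 in replicate 2 and from 72.9 to 90.3 in replicate 3, with a fitted value of 0.31 ± 0.23 (SE, edgeR adjusted p = 1). Kif20b (chr19:34922361-34975745, plus strand), a kinesin of cytokinesis and the most abundant of the 6, stayed close, with 164 to 153, 264 to 239 and 222 to 243 CPM in replicates 1, 2 and 3, for -0.05 ± 0.19 (SE, edgeR adjusted p = 1). Kif2c, a kinesin that takes microtubules apart at centromeres, had the largest ratios of the 6 in replicates 1 and 3 (0.72 and 0.66 on the log2 scale) and -0.18 in replicate 2.

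The spindle assembly genes held the extremes of replicate 2. Ckap2, which encodes a microtubule-nucleating spindle protein, went from 113 to 181 CPM in replicate 2, with 108 to 114 in replicate 1 and 104 to 114 in replicate 3, so its log2 ratio was 0.68 there against 0.08 and 0.14. Aspm, a protein of spindle poles, went from 70.3 to 48.1 CPM in replicate 2, a log2 ratio of -0.55, but from 46.7 to 59.6 and from 35.5 to 45.6 in replicates 1 and 3. Hmmr (chr11:40701395-40733422, minus strand), the hyaluronan receptor that binds spindle microtubules and the most abundant of this group, had 149 to 167, 464 to 422 and 317 to 371 CPM in replicates 1, 2 and 3, for 0.04 ± 0.39 (SE, edgeR adjusted p = 1). Dlgap5 (chr14:47387779-47418407, minus strand), which encodes the spindle protein HURP, was the only one of the 44 that was lower in all 3 replicates, with 53.2 to 46.9, 90.3 to 75.0 and 90.7 to 73.4 CPM. In the blocked fit it was at -0.27 ± 0.11 (SE, edgeR unadjusted p = 0.0420, adjusted p = 0.838).

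In cytokinesis, Prc1 (chr7:80294450-80316259, plus strand), which bundles the microtubules of the central spindle, went from 99.1 to 115 CPM in replicate 1, from 185 to 132 in replicate 2 and from 159 to 179 in replicate 3. Ect2 (chr3:27097222-27153878, minus strand), the activator of RhoA at the division plane, had 32.8 to 41.8, 94.7 to 92.2 and 77.7 to 109.5 CPM in replicates 1, 2 and 3. Their fitted values were -0.05 ± 0.22 and 0.24 ± 0.38 (SE, edgeR adjusted p = 1 for each). Among the chromosome genes, Top2a (chr11:98992943-99024189, minus strand), the topoisomerase that untangles sister chromatids and the most abundant transcript of the set, went from 474 to 573 CPM in replicate 1, from 1159 to 931 in replicate 2 and from 835 to 1040 in replicate 3. Mki67 (chr7:135689784-135716361, minus strand), the proliferation marker that coats mitotic chromosomes, had 124 to 104, 119 to 105 and 67.1 to 78.7 CPM in replicates 1, 2 and 3. Their fitted values were 0.05 ± 0.28 and -0.14 ± 0.38 (SE, edgeR adjusted p = 1 for each), smaller than their errors.

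Replicate 2, with 4 plates a condition, allowed plates to be set side by side. The labels give them 1 replicate number and do not say whether they came from separate cultures, so they were not counted as replicates and no test was made. For 4 mitosis genes all 4 auxin plates lay above all 4 control plates (9.09%, background 7.47%), and for 5 all lay below (11.4%, background 5.78%). The 4 were Bub1b, Ccna2, Cdc20 and Ckap2. The 5 were Aspm, Cenpf, Incenp, Kif11 and Top2a. On the control plates Cdc20 lay between 754 and 813 CPM and on the auxin plates between 883 and 1026, and Ckap2 lay between 105 and 124 and between 156 and 205. Incenp lay between 203 and 212 CPM on the control plates and between 135 and 169 on the auxin plates. In replicate 1, with 2 plates a condition, 23 genes had both auxin plates above both control plates (52.3%, background 17.8%) and 2, Ccnb2 and Dlgap5, had both below (4.55%, background 13.3%).

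**Figure D2:**
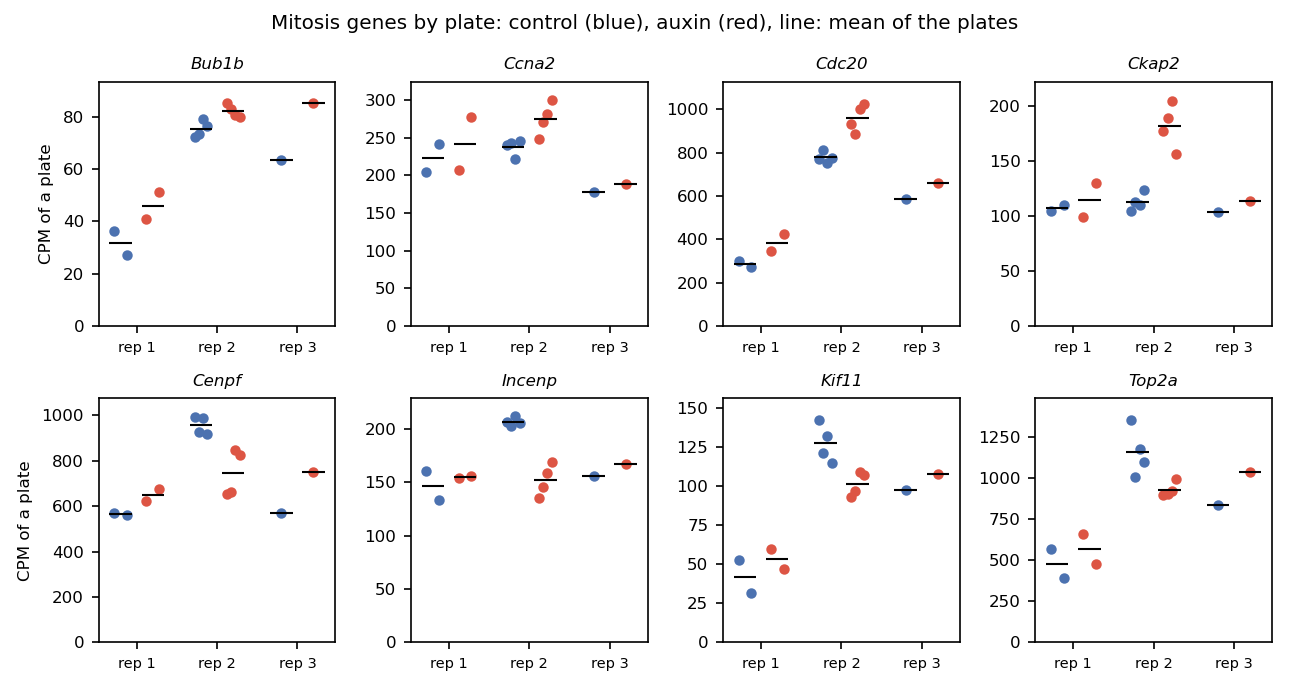
CPM of the 8 genes named in each panel on single plates, for control (blue) and auxin (red) plates of replicates 1, 2 and 3; black lines are the means of the plates. In replicate 2 the auxin plates of Bub1b, Ccna2, Cdc20 and Ckap2 lie above the control plates, and those of Cenpf, Incenp, Kif11 and Top2a below them.

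Single cells were then described by the summed CPM of the 44 genes, a value that gets no test because the genes were chosen as a list. The median cell of replicate 1 went from a sum of 5713 to 7725 CPM. In replicate 2 the median went from 11799 to 10334 CPM, and in replicate 3 from 8763 to 11332 CPM. The log2 ratios were 0.44, -0.19 and 0.37, with a mean of 0.20 ± 0.34 (SD, n = 3), so the spread between replicates exceeded the mean. With the disputed plates as in the figure source values the ratio of replicate 3 was 0.11 and the mean 0.12, and the mean was 0.09, 0.40 and 0.12 without replicate 1, 2 or 3. Both auxin plates of replicate 1 had medians (7574 and 8312 CPM) above both control plates (5926 and 5257 CPM), whereas the 4 auxin plates of replicate 2 (9606 to 11306 CPM) all lay below its 4 control plates (11626 to 11964 CPM). Replicate 2 auxin plates also held fewer cells past the filter (71 to 74 against 88 to 95 of 96 wells) and more UMIs per cell (medians of 172890 to 209426 against 138417 to 150580), and the part of these in the result was not tested. Cells thinned to 20000 UMIs gave ratios of 0.42, -0.17 and 0.40.

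**Figure D3:**
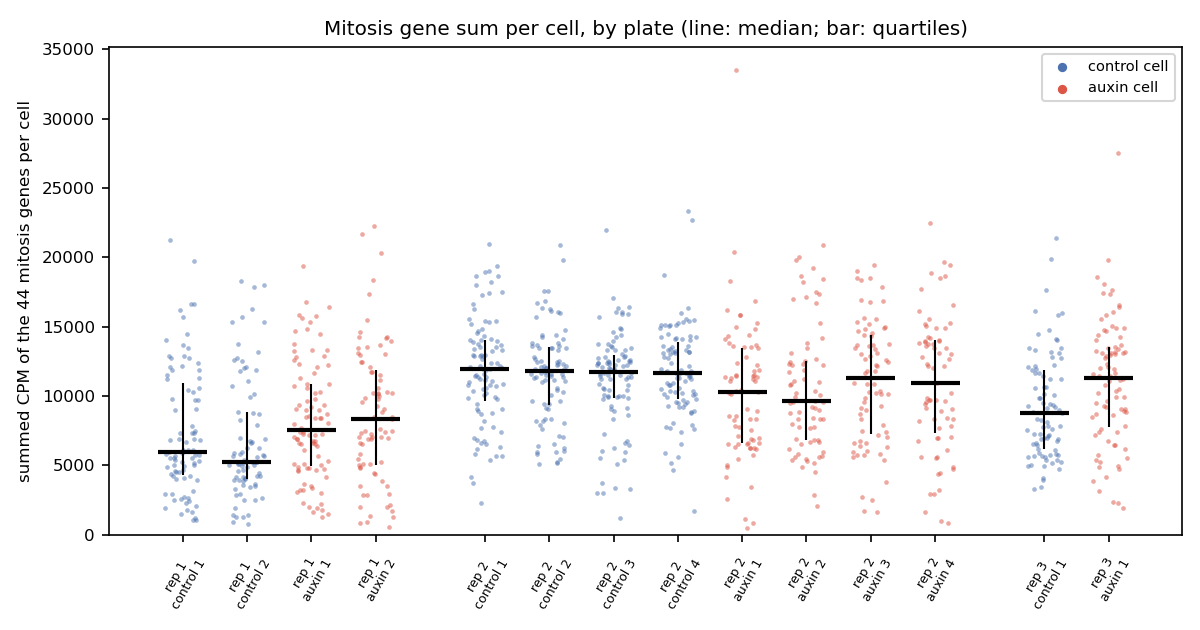
Summed CPM of the 44 mitosis genes in each cell, by plate, for control (blue) and auxin-treated (red) cells; thick lines are medians and thin bars the quartiles of a plate. The medians of auxin plates lie above those of control plates in replicates 1 and 3 and below them in replicate 2, where the auxin cells are also more spread out.

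The lower median of replicate 2 came with a wider distribution. The coefficient of variation of the sum over cells went from 30.8% to 44.3% in replicate 2, against 62.5% to 54.0% in replicate 1 and 41.0% to 41.3% in replicate 3. The 25th percentile in replicate 2 went from 9641 to 6929 CPM while the 75th was 13600 and then 13730 CPM. Cells above the 75th percentile of the control cells of their replicate made up 30.2% of auxin-treated cells in replicate 1 (51 of 169, exact 95% binomial interval 23.4% to 37.7%), 27.6% in replicate 2 (80 of 290, 22.5% to 33.1%) and 45.2% in replicate 3 (38 of 84, 34.3% to 56.5%). Against the control shares of 25%, 25.1% and 24.7% these are 5.18, 2.52 and 20.5 percentage points more, a mean of 9.41 ± 9.72 (SD, n = 3). In cells thinned to 20000 UMIs the differences were 8.73, -0.159 and 16.7 points, so the small difference of replicate 2 turned sign. With 1 threshold for all replicates it was -9.40 points. Placing the disputed plates of replicate 3 as in the figure source values lowered the difference of that replicate to 6.69 points and the mean to 4.796, and the mean was 3.85 without replicate 3. The intervals cover counting error only. The lower end behaved differently, a comparison added after the data were seen. Cells below the 25th percentile of the controls were 17.8% of auxin-treated cells in replicate 1 (30 of 169, 12.3% to 24.4%), 43.8% in replicate 2 (127 of 290, 38% to 49.7%) and 15.5% in replicate 3 (13 of 84, 8.51% to 25.01%). In replicate 2 this share was 37.8% to 50% on the 4 auxin plates and 23.4% to 28.4% on the 4 control plates, and it was 42.96% in cells thinned to equal depth. The differences from the control share were -7.25, 18.7 and -9.23 points in replicates 1, 2 and 3, and -6.66, 18.4 and -4.82 points in thinned cells. The interval of replicate 3 holds its control share of 24.7%, and the differences were not tested. A mean over the replicates (0.749 ± 15.6 points, SD, n = 3) describes none of them.

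In cells thinned to 20000 UMIs, the share of cells with a molecule of the gene was lower after auxin for 8 of the 44 genes in replicate 1 (18.2%, background 36%), for 36 in replicate 2 (81.8%, background 47.1%) and for 19 in replicate 3 (43.2%, background 49.4%), a tally added after the data were seen, with the 9517 genes of at least 1 count per cell as background. The median difference of the 44 was 5.09, -5.08 and 1.22 points, beside 1.16, 0.155 and 0 over those genes. In replicate 2 the share with at least 1 Cdk1 molecule went from 93.1% to 71.8%, that for Ube2c from 95.04% to 77.6%, and that for Prc1 from 84.0% to 62.1%. For Cdc20 it went from 96.4% to 94.2%, and for Ckap2 from 71.1% to 86.3%. For Cdk1 the share went from 81.0% to 77.5% in replicate 1 and from 92.9% to 92.4% in replicate 3, and for Ube2c from 84.5% to 84.6% and from 94.1% to 93.7%. That for Prc1 was higher after auxin in both of these replicates, going from 52.4% to 63.9% and from 71.4% to 79.8%. The S-phase sum of replicate 2 was not lower after auxin. The median summed CPM of 30 S-phase genes went from 5596 to 5779 in replicate 1, from 6261 to 6870 in replicate 2 and from 6829 to 6326 in replicate 3.

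Across cells of 1 replicate and condition the mitosis genes varied together. The mean Spearman correlation of CPM over the 946 pairs of the 44 genes went from 0.322 (168 cells) to 0.315 (169 cells) in replicate 1, from 0.176 to 0.248 in replicate 2 (371 and 290 cells) and from 0.200 to 0.247 in replicate 3 (85 and 84 cells). The mean over all pairs of the 9517 genes with at least 1 count per cell was far lower but also differed between the conditions, going from 0.0136 to 0.0124 in replicate 1, from 0.0405 to 0.0508 in replicate 2 and from 0.00691 to 0.0235 in replicate 3. The pairs share library, depth and scaling. Of the 946 pairs, 800 were above 0 in all 6 sets. The difference between auxin and control was -0.0071, 0.0718 and 0.0464 in replicates 1, 2 and 3, a mean of 0.0370 ± 0.0402 (SD, n = 3), which is within the spread between replicates. This depended on the measure. Raw counts gave differences of 0.0106, 0.0331 and 0.154, a mean of 0.0658 ± 0.0771 (SD, n = 3). With raw counts the mean over all pairs of the 9517 genes was also higher after auxin. It went from 0.0735 to 0.0771, from 0.175 to 0.203 and from 0.0601 to 0.140 in replicates 1, 2 and 3. Pearson correlations of log2(CPM + 1) were higher after auxin in all 3 replicates, by 0.0172, 0.0580 and 0.0872, a mean of 0.0541 ± 0.0352 (SD, n = 3), and when cells needed more than 4000 detected genes the Spearman differences were 0.0040, 0.0779 and 0.0616, a mean of 0.0478 ± 0.0388 (SD, n = 3). With the disputed plates as in the figure source values the difference of replicate 3 was 0.0081 and the mean 0.0243, and without replicate 2 the mean was 0.0197. Pairs of a mitosis gene with an S-phase gene averaged -0.0758 to 0.0737, far below the pairs within the set.

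**Figure D4:**
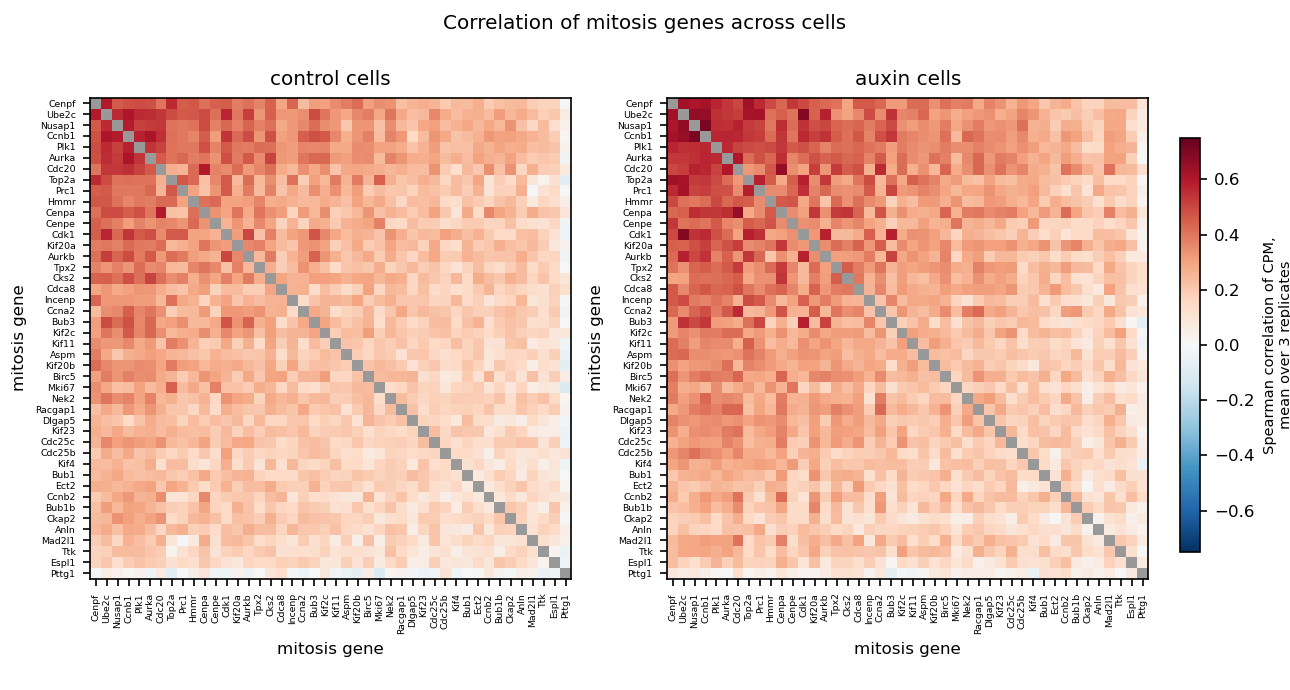
Spearman correlation of CPM across cells for each pair of the 44 mitosis genes, as the mean over 3 replicates, in control (left) and auxin-treated (right) cells; genes are in the order of their mean correlation with the rest of the set and the diagonal is grey. The block from Cenpf to Cdc20 at the upper left is the darkest in both conditions and the row of Pttg1 at the bottom is near 0.

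The highest correlations of pairs were those of Ccnb1, Ube2c, Cdk1 and Cdc20. Ccnb1 and Nusap1, a protein that stabilises spindle microtubules, had the highest mean correlation over the 6 sets (0.647), with 0.614 to 0.688, 0.558 to 0.701 and 0.590 to 0.731 in replicates 1, 2 and 3. Cdk1 and Ube2c followed (0.630), then Ccnb1 and Ube2c (0.628) and Cdc20 and Cenpa (0.627). Role groups are given as means over the 3 replicates. The mean correlation within a group was higher with auxin than without in 8 of the 10, and that with genes of other roles in all 10, while the mean over the whole set was not higher in replicate 1. Pairs of mitotic kinases averaged 0.404 without and 0.424 with auxin, and pairs of centromere and kinetochore genes 0.399 and 0.438. It was lower with auxin for Mki67 and Top2a, the only pair of chromosome genes (0.446 and 0.320), and for the genes of the central spindle and cytokinesis (0.218 and 0.204). Pairs of spindle checkpoint genes averaged 0.137 and 0.173, below their pairs with genes of other roles (0.184 and 0.216). Of the checkpoint genes Ttk averaged 4.30, Bub1b 8.77 and Bub3 56.3 UMIs per cell, and the part of low counts was not tested. The genes of the anaphase-promoting complex and separase group (0.169 and 0.197) and the kinesins (0.200 and 0.254) also lay below their pairs with other roles in both conditions.

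Each gene was also set against the summed CPM of the other 43. Cenpf followed the rest most closely, with a mean Spearman correlation of 0.740 over the 6 sets (0.594 to 0.832), ahead of Ube2c (0.708), Nusap1 (0.696), Ccnb1 (0.691) and Plk1 (0.674). These neighbours in the order differed by less than the range of each over the sets. In control cells of replicate 1, Cenpf averaged 1309 CPM in the 25% of cells with the highest sums of the other genes and 100.1 CPM in the 25% with the lowest. In control cells of replicate 2 these were 1446 and 580 CPM, and in its auxin-treated cells 1409 and 257 CPM. Ube2c in replicate 2 had 769.9 and 251 CPM in control cells and 779 and 68.3 CPM after auxin. These sets of cells were taken within each condition by the sum itself, so the lower values in the low cells of replicate 2 restate its wider lower end and are no separate result.

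Pttg1 stood at the other end. Its correlation with the rest went from -0.05 to -0.03 in replicate 1, from 0.12 to 0.08 in replicate 2 and from -0.0025 to 0.20 in replicate 3, with a mean of 0.054, although it was detected in 83.6% to 97.6% of cells. Pttg1 averaged 29.0 UMIs per cell, against 2.45 for Cdc25b, whose correlation with the rest was 0.336. Espl1 (0.234), Ttk, a kinase of the checkpoint (0.243), Mad2l1 (0.281) and Anln, a scaffold of the contractile ring (0.284), came next from below. Espl1, Ttk and Anln averaged 3.75, 4.30 and 4.54 UMIs per cell, against 24.8 for Mad2l1 and 99.3 for Cenpf. The part of low counts in this order was not tested. Mad2l1 was also the gene with the highest mean correlation with the S-phase sum (0.151), followed by Ccna2 (0.105), and Cenpe, a kinetochore motor, had the lowest (-0.236). Over the 6 sets the values ran from -0.032 to 0.325 for Mad2l1 and from -0.138 to 0.360 for Ccna2, which is wider than the gap between them.

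**Figure D5:**
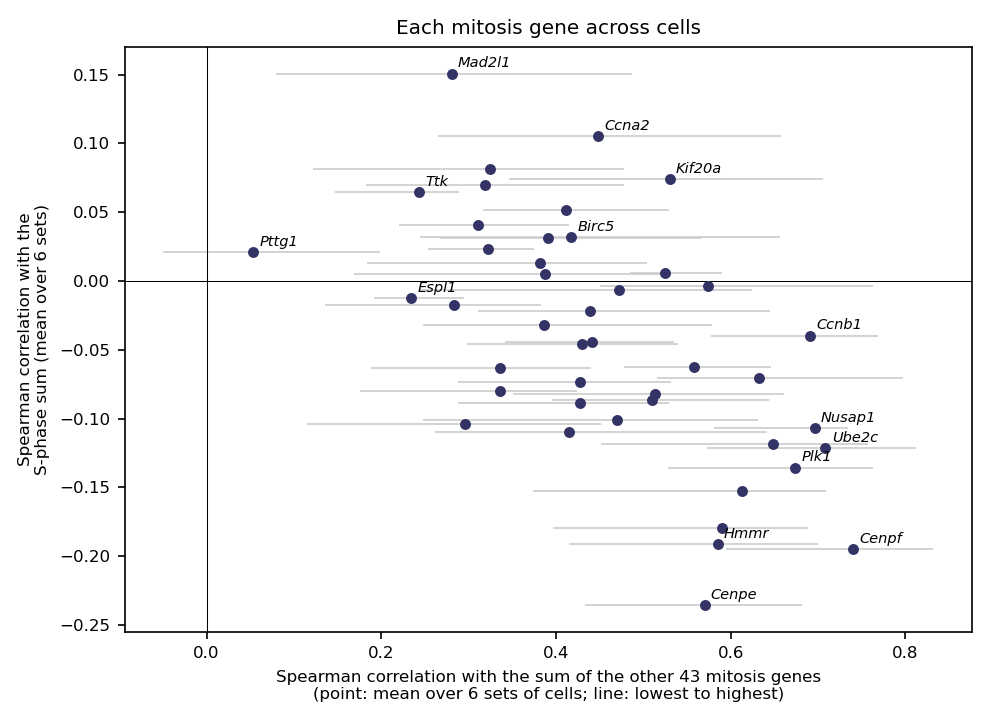
Spearman correlation of each of the 44 mitosis genes with the summed CPM of the other 43 (x axis; points are means over 6 sets of cells and lines run from the lowest to the highest set) and with the summed CPM of 30 S-phase genes (y axis, means). Cenpf at 0.740 lies farthest to the right and Pttg1 at 0.054 farthest to the left.

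Outside the set, 9473 genes were ranked by their mean Spearman correlation with the summed CPM of the mitosis genes over the 6 sets. Among the 10 highest were Arl6ip1 (0.667), Tubb4b (0.584), Ccnf (0.559), Pimreg (0.526), Jpt1 (0.522), Cdca2 (0.509), Tuba1c (0.500), Lockd (0.476) and Fzr1 (0.462). Arl6ip1 encodes a protein that shapes the endoplasmic reticulum, Tubb4b and Tuba1c encode tubulins, Ccnf encodes cyclin F, and Fzr1 encodes CDH1, the activator of the anaphase-promoting complex that follows CDC20. Of the 25 highest, 11 were on the list of 82 other mitosis genes.

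That list and the lists of regulators and S-phase genes gave no call in the test either. Of the 82 other mitosis genes, 0 passed and the median log2 fold change was 0.10. The lowest p-values were those of Kif18b, a kinesin that shortens astral microtubules (0.53 ± 0.25, SE, edgeR adjusted p = 1), and Ska3, a kinetochore protein (0.51 ± 0.25, adjusted p = 1). Kif18b was higher in all 3 replicates, by 0.30, 0.67 and 0.62 on the log2 scale. Of 21 regulators of mitotic transcription 0 passed, with a median of -0.01. Nfya, the DNA-binding subunit A of NF-Y, went from 7.71 to 6.29 CPM in replicate 1, from 5.81 to 2.97 in replicate 2 and from 7.59 to 3.29 in replicate 3, a fitted value of -0.71 ± 0.59 (SE, edgeR adjusted p = 1), and Tfdp1, the partner of E2F factors, was at 0.31 ± 0.29 (adjusted p = 1). Of the 29 S-phase genes tested 0 passed, with a median of -0.03. Rrm2, which supplies deoxynucleotides, was at 0.24 ± 0.17, and Dscc1, part of a PCNA loader, at -0.24 ± 0.26 (SE, edgeR adjusted p = 1 for each). These lists share their control samples with the mitosis genes and are not separate evidence.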

How the data were processed

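The authors deposited UMI counts per gene and well from Smart-SCRB libraries, neither normalized nor filtered by cell, after alignment to mm10; the aligner, the counting program and the gene annotation are not given in the sources used here. The deposited tables also hold per well the authors' number of detected genes, summed count, percent of counts from ERCC spike-ins and yield ratio, and per plate a count of reads and a saturation fraction. The first 2 equalled the recounted values in 1536 of 1536 wells. The 92 ERCC transcripts and 11 other sequences were left out of totals and tests.

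The mitosis genes and every list were chosen with earlier results of these data known. A plate's condition came from the deposited annotation, which in replicate 1 writes RAD21 positive and negative, read here as control and auxin. For 2 of the 4 plates of replicate 3 the annotation and the study's own source values disagree, so their 168 cells were left out. The study's filter of more than 2600 detected genes left 1167 cells, of which 27 held fewer than 20000 UMIs and were left out of thinned values. No caller of doublets was run. CPM is a gene's count per 1000000 UMIs of genes, and a UMI counts a molecule once whatever its length. Counts summed per replicate and condition were tested with edgeR 4.0.16 (TMM, its low-count filter, quasi-likelihood test, threshold 0.05) in R 4.3.3, with DESeq2 1.42.0 as an alternative. The edgeR fits without and with the block were tried on simulated data, and DESeq2 was not. P-values measure the spread between these 3 replicates. The replicate numbers pair the samples: deviations from the group means correlated at 0.866, 0.824 and 0.666 between the conditions of replicates 1, 2 and 3 over 17514 genes. Values in cells are descriptions without a test.

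Named with values are the member with the highest mean control CPM and that with the lowest unadjusted p of each role, the 10 genes outside the list closest to the members' sum, and the 2 lowest p-values of each other list. Members described beyond these (such as Cdk1, Ube2c, Ckap2, Mad2l1 and Pttg1) were chosen after their values were seen. Alternatives changed the block, the tool, the scaling, the filters, the depth per cell (thinned, seed 1), the placement of the disputed plates, the replicates used, the percentile and the correlation measure. Gene positions are from GENCODE on mm10, which held 99.6% of the gene identifiers. Other computations used Python 3.11.15, numpy 2.4.6, scipy 1.17.1 and pandas 2.3.3. 1 gene among those ranked by correlation is not reported here.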

Additional observations from a re-analysis of the deposited data

Results flagged for a closer look

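The per-cell sum of the mitosis genes moved in opposite directions in replicates 1 and 2. The log2 ratio of the medians, auxin over control, was 0.44 in replicate 1, where both auxin plates lay above both control plates, and -0.19 in replicate 2, where all 4 auxin plates lay below all 4 control plates. The difference between these replicates was not tested.

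The disputed plates of replicate 3 were left out of the main comparisons and enter only as alternatives. On the one that the annotation gives to auxin and the source values give to control, 40.3% of cells (31 of 77, exact 95% binomial interval 29.2% to 52.1%) exceeded the 75th percentile of the control plate, against 24.7% on that control plate and 45.2% on the auxin plate. On the other disputed plate the share was 30.8% (28 of 91, 21.5% to 41.3%), so that this plate does not pass the limit that brought up the first. Which placement is right was not tested.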

How the results depend on the processing

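No mitosis gene passed the threshold in any of the 20 fits. The median log2 fold change of the 44 genes stayed above 0, at 0.05 with the disputed plates as in the figure source values and 0.10 as in the annotation, and it ranged from 0.06 without replicate 3 to 0.26 without replicate 2. With the replicate block it was 0.12, and the block changed no call of a mitosis gene, while the calls over all genes went from 0 to 3 with edgeR and from 0 to 61 with DESeq2. In the blocked fit without replicate 2, 21 mitosis genes had an unadjusted p under 0.05, beside 1127 of 16756 genes tested. With all replicates there were 5, beside 1036 of 17514. The lowest adjusted p of a mitosis gene without replicate 2 was 0.0922. The cause of these shifts was not tested.

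Named genes near 0 turned sign. With the disputed plates as in the annotation, Bub3 was at -0.00062, Cenpf at -0.0027 and Hmmr at -0.011. With those plates as in the figure source values, Bub3 was at -0.00052, Cenpf at -0.063 (-0.046 with the block), Hmmr at -0.0050 and Top2a at -0.039. In thinned cells Bub3 was at -0.0042, Cenpf at -0.083 (-0.039 with the block), Hmmr at -0.085 (-0.057 with the block) and Top2a at -0.040. Leaving out 1 replicate at a time gave ranges of -0.060 to 0.237 for Bub3, -0.124 to 0.275 for Cenpf, -0.077 to 0.208 for Hmmr, -0.118 to 0.299 for Top2a, -0.16 to 0.016 for Kif20b and -0.191 to 0.19 for Prc1, and in blocked fits Mki67 was at 0.018 without replicate 1, Kif20b at 0.0061 and Prc1 at 0.189 without replicate 2, and Bub3 at -0.034, Cenpf at -0.114, Hmmr at -0.022 and Top2a at -0.056 without replicate 3. The other genes named by rule kept their sign in all 20 fits.

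No alternative moved the mean difference in the sum, the share of high cells or the correlation by more than 1 SD of the replicates, but some took a mean past its own SD. For the share of high cells this was so at the 90th percentile (6.10 ± 5.15 points), with the disputed plates as in the annotation (8.10 ± 7.49) or the figure source values (4.796 ± 2.11), and without replicate 2 (12.9 ± 10.9) or 3 (3.85 ± 1.88). For the correlation it was so with Pearson correlations (0.0541 ± 0.0352), in cells with more than 4000 detected genes (0.0478 ± 0.0388) and without replicate 1 (0.0591 ± 0.0179), and for the log2 ratio of the sum without replicate 2 (0.40 ± 0.05). With genes weighted equally the mean difference in the share of high cells was 13.5 ± 14.9 points, against 9.41 ± 9.72. In thinned cells replicate 2 turned to -0.159 points, and with 1 threshold for all replicates replicate 2 turned to -9.40 points.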
